A study of Homo sapiens with 6 samples.

Results

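The zinc finger genes of human chromosome 19 were described here in A431CT and Dsg2KO cells. They were taken as the rows of the deposited count table that carry chromosome 19 and a name of the form ZNF followed by a number, with or without a last letter, which gave 243 of 21462 genes. The group was proposed because ZNF726 and ZNF350 had almost no reads left in Dsg2KO cells. It was therefore chosen by the counts of these 2 genes. Their own levels are given as a description, without a p-value. Both were still tested with the other genes, and counts of called members include them except where stated. The other 241 members entered by chromosome and name alone.

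A431 is an established keratinocyte line from a human epidermoid carcinoma. A431CT is the control line (genotype WT in the labels) and Dsg2KO is the matching line in which DSG2, the gene of the desmosomal cadherin desmoglein 2, was disrupted by CRISPR/Cas9. Polyadenylated RNA of 3 libraries per line was sequenced, with no treatment named. All libraries of a condition come from 1 control or 1 edited line, so loss of DSG2 and any other difference between the lines cannot be told apart, and whether Dsg2KO is a clone or a pool is not given in the sources used here.

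Most zinc finger genes of chromosome 19 encode proteins with a KRAB domain followed by a row of C2H2 zinc fingers. The fingers bind DNA, often within transposable elements, and the KRAB domain recruits TRIM28 (KAP1), which brings the histone methyltransferase SETDB1, heterochromatin protein 1 and deacetylases to silence the bound site. The genes arose by repeated duplication and stand in clusters of near relatives, and some of their promoters are a known target of DNA methylation in carcinomas.

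Promoters are shown for both genes with almost no reads in Dsg2KO cells, for ZNF675, the nearest expressed member beside ZNF726, and for ZNF91, whose protein is the nearest to that of ZNF726. Each sequence runs 5′ to 3′ from 250 bases before to 50 bases after the start of the gene in RefSeq (GRCh38.p14), so that its last 50 bases lie within the gene, and capitals mark each CG, the dinucleotide that DNA methylation acts on. The positions are chr19:23914636-23914935 on the plus strand for ZNF726, and on the minus strand chr19:23687163-23687462 for ZNF675, chr19:23395422-23395721 for ZNF91 and chr19:51986791-51987090 for ZNF350.
ZNF726: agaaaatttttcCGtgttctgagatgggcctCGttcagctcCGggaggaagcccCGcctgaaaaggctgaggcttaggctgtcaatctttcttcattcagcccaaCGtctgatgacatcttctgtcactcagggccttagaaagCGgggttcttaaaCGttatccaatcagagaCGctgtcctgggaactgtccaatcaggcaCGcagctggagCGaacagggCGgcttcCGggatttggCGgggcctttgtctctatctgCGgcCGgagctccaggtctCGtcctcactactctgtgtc
ZNF675: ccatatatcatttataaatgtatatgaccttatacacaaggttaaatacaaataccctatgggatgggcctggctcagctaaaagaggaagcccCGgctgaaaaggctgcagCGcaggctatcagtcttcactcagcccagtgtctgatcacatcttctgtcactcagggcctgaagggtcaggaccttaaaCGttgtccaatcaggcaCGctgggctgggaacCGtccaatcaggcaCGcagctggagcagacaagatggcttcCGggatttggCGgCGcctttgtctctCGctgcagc
ZNF91: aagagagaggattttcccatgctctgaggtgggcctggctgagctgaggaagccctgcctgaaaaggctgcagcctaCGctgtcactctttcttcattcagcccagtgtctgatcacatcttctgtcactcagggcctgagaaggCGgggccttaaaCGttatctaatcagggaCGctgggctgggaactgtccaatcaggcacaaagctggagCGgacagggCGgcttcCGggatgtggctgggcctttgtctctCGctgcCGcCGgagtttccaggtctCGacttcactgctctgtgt
ZNF350: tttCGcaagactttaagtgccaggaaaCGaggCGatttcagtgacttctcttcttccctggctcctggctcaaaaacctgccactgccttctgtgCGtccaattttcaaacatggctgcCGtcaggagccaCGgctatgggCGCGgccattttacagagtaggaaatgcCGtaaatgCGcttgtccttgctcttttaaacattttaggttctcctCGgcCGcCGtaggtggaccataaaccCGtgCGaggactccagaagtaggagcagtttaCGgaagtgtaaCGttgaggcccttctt

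Of the 243 members, 212 had a promoter in the RefSeq table. CG reads the same on both strands, and it occurred in 96.0% of all 35116 promoters of this length. The promoter of ZNF726 held 16 CG, that of ZNF350 held 17, that of ZNF675 held 10 and that of ZNF91 held 11, against a median of 20 over the members and 14 over all promoters. Promoters of the members that were tested had a median of 22 CG, and those of the members with too few reads to be tested had a median of 16.

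Stretches of these promoters are identical. ZNF726 and ZNF675 share the run gtccaatcaggcacgcagctggagc of 25 bases, which was found on either strand in 4 of the 212 member promoters (ZNF726, ZNF675, ZNF431 and ZNF492) and in 0.0199% of all promoters. ZNF675 and ZNF91 share a run of 43 bases, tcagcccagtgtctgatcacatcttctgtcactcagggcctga, found in no other member promoter and in 0.0057% of all promoters. The longest run that ZNF350 shared with ZNF726 had only 7 bases, cttctgt, which 5.90% of all promoters held. Of the carriers of the 25-base run, ZNF431 was expressed without a call, at 21.6 ± 1.72 CPM in A431CT cells, against 20.4 ± 1.20 CPM in Dsg2KO cells (SD, n = 3, CPM being counts relative to library size, scaled with TMM factors). The shared run therefore stood in promoters of genes that lost reads and of a gene that passed no threshold.

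The libraries held 12845719 to 13650746 counts in A431CT cells and 14786041 to 16255692 counts in Dsg2KO cells, so that 3 counts, taken here as the floor, correspond to 0.184 to 0.236 CPM, which covers counting error only. Members held between 0.289% and 0.309% of the counts of each library. DSG2 fell from 323 ± 6.08 to 51.9 ± 2.88 CPM (SD, n = 3). The keratinocyte markers KRT5, TP63, SFN, CDH1 and EGFR were expressed in all 6 libraries, while KRT14 had at most 2 counts. Fibroblast and leukocyte markers were at or near 0 apart from COL1A1, with 23 to 50 counts, and the melanocyte marker PMEL had 37 to 63 counts with MLANA and TYR at 3 counts or fewer.

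ZNF726 (ENSG00000213967.12) lies on the plus strand at chr19:23914876-23945159 (GRCh38, GENCODE 44) and encodes a protein with 14 C2H2 fingers. It had 47, 56 and 58 counts in the A431CT libraries and 0, 1 and 1 counts in the Dsg2KO libraries. In CPM these are 3.70, 4.13 and 4.50 against 0, 0.061 and 0.062. Every A431CT library was far above every Dsg2KO library, where the gene stood below the floor of 3 counts. The summed counts, scaled to the libraries, gave a level 97.5-fold higher in A431CT cells, which leaves 1.03% of the A431CT level in Dsg2KO cells. The exact 95% counting interval, 26.5 to 812, covers counting error alone. It leaves out the spread between libraries and the choice of the gene by these same counts. In bulk RNA, fewer cells with the transcript and less transcript in each cell cannot be told apart.

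ZNF350 (ENSG00000256683.7, chr19:51964340-51986856, minus strand) encodes ZBRK1, a KRAB protein with 8 fingers known to bind BRCA1 and to repress the growth arrest gene GADD45A. It had 25, 34 and 33 counts in A431CT cells, against 1, 0 and 1 in Dsg2KO cells, or 1.97, 2.51 and 2.56 CPM against 0.067, 0 and 0.062 CPM. Here too the conditions were fully apart, and all Dsg2KO libraries were below the floor. The level was 55.7-fold higher in A431CT cells (exact 95% counting interval 14.98 to 467), which leaves 1.80% in Dsg2KO cells. Both ratios rest on 2 counts in Dsg2KO cells, so their upper ends are loosely set. The interval for ZNF350 likewise leaves out the spread between libraries and the choice of the gene by these counts. No other member had 10 or more counts in every library of one condition and at most 3 in every library of the other.

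Other transcripts overlap both genes. ZNF350 overlaps ZNF350-AS1 on the opposite strand, and ZNF726 overlaps lncRNA genes on both strands and a pseudogene. How the counting treated strand is not given in the sources used here, so reads of a gene and of its antisense partner cannot be told apart. Neither transcript shared a stretch of 100 nt with another gene's transcript.

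**Figure D1:**
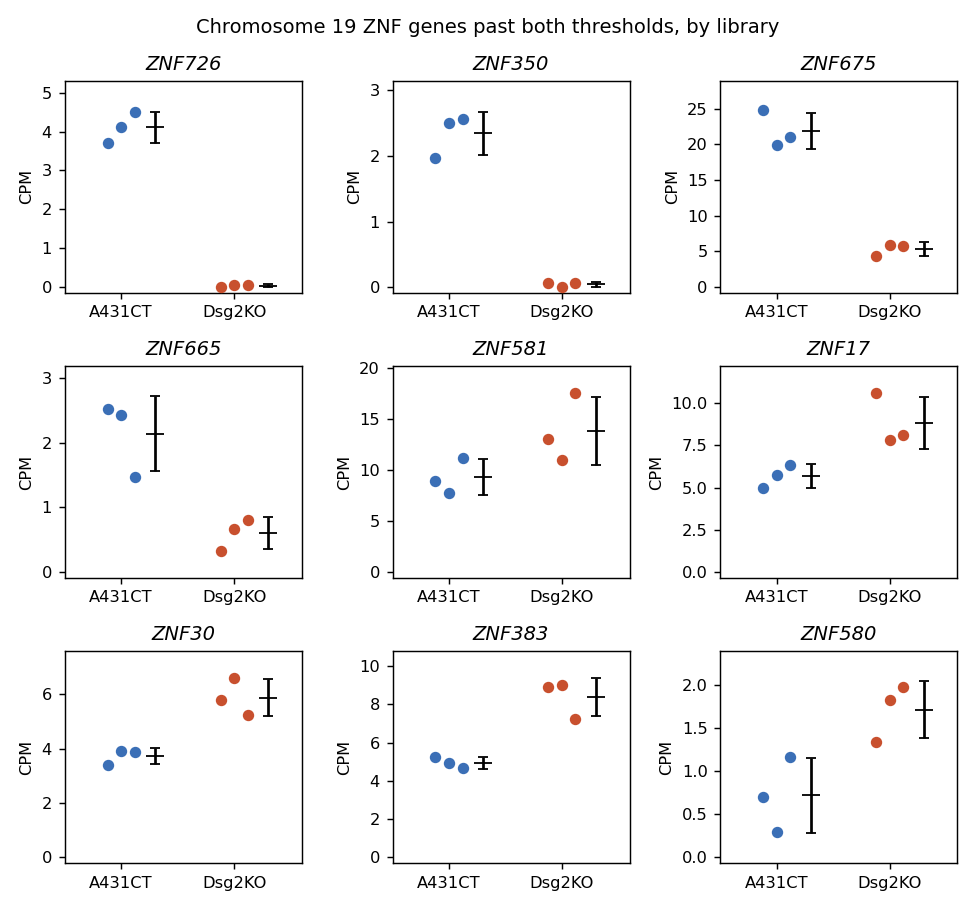
Counts relative to library size (CPM, vertical axis from 0) of the 9 members past both thresholds, 1 panel per gene, with 1 point per library of A431CT (blue) and Dsg2KO (red) cells and bars for the mean and SD of 3 libraries. ZNF726 and ZNF350 lie at 0.062 and 0.067 CPM or below in Dsg2KO cells, and ZNF581 is the panel in which the conditions overlap.

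Reads were sufficient for a test in 177 members, and 66 were not tested. In 55 members every library had 3 counts or fewer, and 15 of them had no count in any library. Among tested members the median level was 10.8 CPM, against 33.6 CPM over all genes tested. The median standard error of the log2 fold change was 0.14 for members and 0.074 for all genes, so that a change of the same size was harder to tell from replicate spread in a typical member than in a typical gene.

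A gene was called at an adjusted p-value under 0.05 (edgeR quasi-likelihood test, Benjamini-Hochberg over all 12857 genes tested), provided that its log2 fold change was 0.5 or more in size. By this rule 9 of the 177 tested members were called (5.08%), 5 higher and 4 lower in Dsg2KO cells, beside 6.03% of all genes tested, 2.99% higher and 3.03% lower. Without ZNF726 and ZNF350, 7 of 175 remained (4.0%), 5 higher and 2 lower. The balance of directions rested on single libraries, since 3 of all tested members were called higher and 5 lower without A431CT replicate 1, 3 and 4 without Dsg2KO replicate 1, and 3 and 6 without Dsg2KO replicate 3. A share of this size is near that of all genes, and nothing about the members as a group is read from it. The log2 fold change was above 0 in 100 members (56.5%), beside 49.1% of all genes. It was above 0 in 59.3% of tested zinc finger genes on other chromosomes, so this share is not particular to chromosome 19. The members' median log2 fold change was 0.03, with quartiles of -0.07 and 0.15, beside -0.0048 over all genes.

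**Figure D2:**
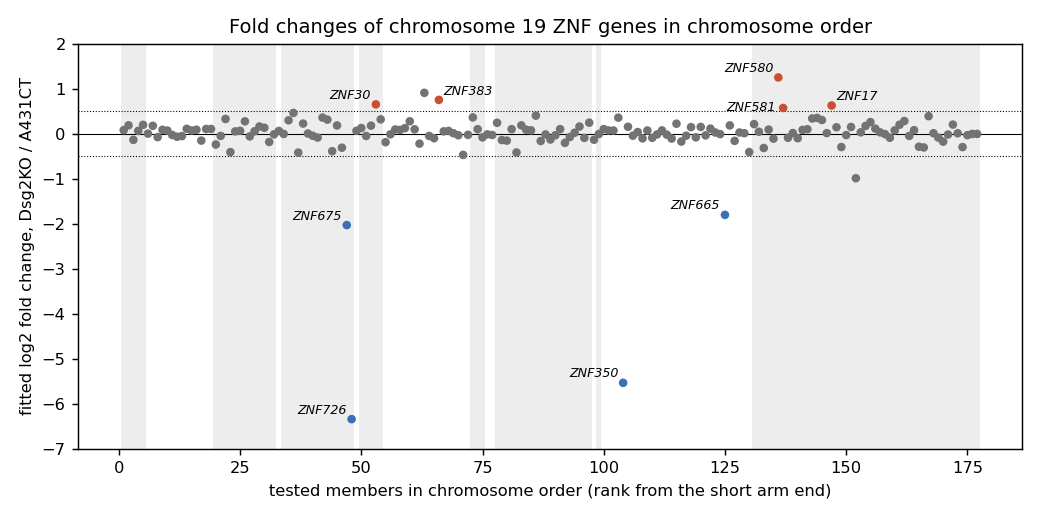
Fitted log2 fold change (Dsg2KO over A431CT, vertical axis) of the 177 tested members in their order along chromosome 19 (horizontal axis, rank), with alternating shading for stretches separated by more than 1 Mb and dotted lines at 0.5 on either side of 0. Called members are blue where lower and red where higher. The fitted values of ZNF726 and ZNF350 depend on the prior count and mark no exact size, while most other members lie between the dotted lines.

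ZNF675 had the clearest test among the members that did not choose the group. It encodes TIZ, known as an inhibitor of the signalling adaptor TRAF6, lies at chr19:23525631-23687220 on the minus strand and has 11 fingers. Its level was 24.8, 19.9 and 21.0 CPM in A431CT cells, against 4.29, 5.93 and 5.81 CPM in Dsg2KO cells. The lowest A431CT library was above the highest Dsg2KO library by several times the spread within either condition. ZNF675 fell by 2.03 on the log2 scale (SE 0.14, 95% interval -2.32 to -1.73, edgeR adjusted p = 9.43e-08), which leaves 24.4% of the A431CT level. The gene thus lost reads in every Dsg2KO library, yet unlike ZNF726 it stayed well above the floor.

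ZNF665, with 18 fingers, lies at chr19:53159213-53193386 on the minus strand. It had 32, 33 and 19 counts in A431CT cells, against 5, 11 and 13 counts in Dsg2KO cells, so the conditions did not overlap but the counts were few. The mean went from 2.14 ± 0.58 to 0.604 ± 0.242 CPM (SD, n = 3), 28.2% of the A431CT level. ZNF665 fell by 1.80 on the log2 scale (SE 0.39, 95% interval -2.63 to -0.97, edgeR adjusted p = 0.00267). An antisense lncRNA overlaps it, and 0.025% of its 100-nt windows occur in another transcript.

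All 5 members called higher in Dsg2KO cells changed by less than those called lower. ZNF383, which has 11 fingers, was at 5.27, 4.94 and 4.65 CPM in A431CT cells, against 8.92, 8.99 and 7.23 CPM in Dsg2KO cells. The conditions did not overlap, and the gene rose by 0.76 on the log2 scale (SE 0.16, 95% interval 0.41 to 1.11, edgeR adjusted p = 0.00267). ZNF585B and a lncRNA overlap it on the opposite strand. Of the members called higher, ZNF383 alone kept its call under every other normalization, count filter, test and left-out library tried.

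ZNF30, with 16 fingers, was at 3.38, 3.91 and 3.88 CPM in A431CT cells, against 5.77, 6.61 and 5.25 CPM in Dsg2KO cells. It rose by 0.66 (log2, SE 0.19, edgeR adjusted p = 0.0156), without overlap between conditions. The call did not hold when A431CT replicate 1 (adjusted p = 0.0565) or Dsg2KO replicate 2 (adjusted p = 0.0744) was left out. ZNF17, with 18 fingers, was at 4.95, 5.75 and 6.36 CPM in A431CT cells, against 10.6, 7.83 and 8.10 CPM in Dsg2KO cells. It rose by 0.63 (log2, SE 0.17, edgeR adjusted p = 0.0112), and without Dsg2KO replicate 1, its highest library, the log2 fold change was 0.49 (adjusted p = 0.0711). Read-through gene models on the same strand overlap ZNF17, and 16.5% of its 100-nt windows occur in another transcript.

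ZNF580 and ZNF581 encode short proteins with 3 and 4 fingers and overlap each other, and CCDC106, on the same strand, so their reads may have been split between them. ZNF580 had 9, 4 and 15 counts in A431CT cells, against 20, 30 and 32 counts in Dsg2KO cells. It rose by 1.26 (log2, SE 0.42, edgeR adjusted p = 0.0346), and the call was lost with DESeq2 (adjusted p = 0.0579) and whenever a library other than A431CT replicate 3 was left out (adjusted p from 0.0502 to 0.151). ZNF581 was at 8.97, 7.74 and 11.2 CPM in A431CT cells, against 13.1, 11.0 and 17.6 CPM in Dsg2KO cells, where the lowest Dsg2KO library was below the highest A431CT library. It rose by 0.58 (log2, SE 0.17, edgeR adjusted p = 0.0202), and with Dsg2KO replicate 3 left out the value was 0.37 (adjusted p = 0.126). The ZNF581 call was also lost without A431CT replicate 1 (adjusted p = 0.0631) or 2 (adjusted p = 0.0748). CCDC106 had a log2 fold change of -0.23 (edgeR adjusted p = 0.0296), opposite in sign to both. Without ZNF580 and ZNF581, 3 members were called higher.

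By the adjusted p-value alone, 14 of 177 members passed (7.91%), 6 higher and 8 lower, beside 29.6% of all genes tested. Libraries of the conditions did not overlap in 27 members (15.3%), beside 42.6% of all genes. The 95% interval of the log2 fold change lay within 0.5 of 0 in 107 members (60.5%), beside 70.7% of all genes. These members are therefore not only without a call but bounded to changes smaller than the fold change minimum, whereas the remaining uncalled members include ones whose intervals reach beyond it.

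Besides the called genes, 5 members passed by the adjusted p-value alone, and apart from ZNF91 and ZNF358 they were named after their values were seen. ZNF90 went from 135 ± 21.2 to 101 ± 13.7 CPM (SD, n = 3; log2 fold change -0.41, edgeR adjusted p = 0.00502). A pseudogene on the same strand overlaps ZNF90, as do pseudogenes and a lncRNA on the opposite strand, so its reads are uncertain. ZNF772 had a log2 fold change of -0.29 (adjusted p = 0.0363) and ZNF417 one of -0.28 (adjusted p = 0.0395). ZNF417 shares 23.5% of its 100-nt windows with another transcript, and its protein is 98.1% identical to that of ZNF587, so its reads are uncertain. On the other side of the adjusted p threshold, ZNF790 had a log2 fold change of 0.91 (adjusted p = 0.0699) and ZNF549 one of -0.98 (adjusted p = 0.0714), both with overlapping conditions.

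**Figure D3:**
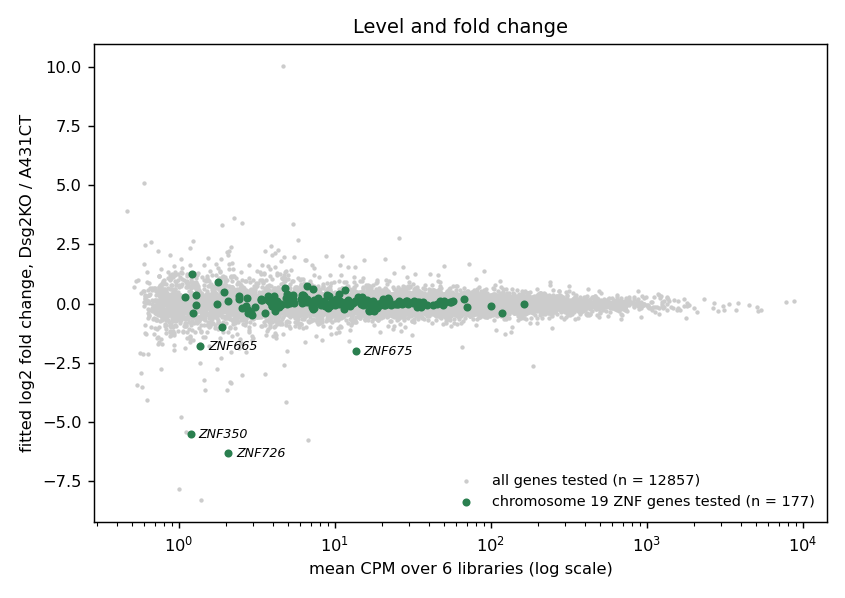
Fitted log2 fold change (Dsg2KO over A431CT, vertical axis) against mean CPM over 6 libraries (horizontal log axis) for all 12857 genes tested (grey) and the 177 tested members (green). All 9 called members, lower or higher, have a mean below 14 CPM. Most uncalled members lie along 0 within the spread of other genes at the same level.

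The position of the members along the chromosome was examined because near relatives stand side by side. A gap of more than 1 Mb between neighbouring members split them into 16 stretches. ZNF726 and ZNF675 stand in a stretch of 36 members at chr19:19668796-23945159, of which 15 were tested, 19 had 3 counts or fewer in every library and no other was called. ZNF350 and ZNF665 stand in a stretch of 39 members, with 31 tested and no other call, and a median log2 fold change of 0.02. The largest stretch, 57 members toward the long arm end with 47 tested, held ZNF580, ZNF581 and ZNF17, and its median was 0.04.

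ZNF675 is the nearest tested member to ZNF726, 228 kb away, and between them ZNF681 had 0, 0 and 1 counts in A431CT cells, against 1, 0 and 1 in Dsg2KO cells. The tested members on either side of ZNF681 thus both lost reads, but ZNF726 chose the group by that loss. Over all tested members 5.08% were called. Genes of other names in this stretch were not examined, and nothing about this place is read from the pair. Next in line stands ZNF91, a repressor of SVA and LINE-1 retrotransposons and the member whose protein is nearest to that of ZNF726 (78.6% identity over 616 residues). ZNF91 was at 19.98, 20.8 and 18.1 CPM in A431CT cells, against 15.3, 15.7 and 16.6 CPM in Dsg2KO cells. Its conditions did not overlap, and its log2 fold change of -0.31 (SE 0.09, edgeR adjusted p = 0.0211) stayed under the fold change minimum. ZNF724, one place further, had a log2 fold change of 0.19 (95% interval -0.10 to 0.48, adjusted p = 0.330), with 51.5% of its 100-nt windows shared with another transcript. Toward the long arm the nearest tested member, ZNF507, lies 8400 kb away across the centromere.

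Around ZNF350 no neighbour was called. The 5 nearest tested members on each side had log2 fold changes between -0.10 and 0.36, and in all 10 the conditions overlapped. ZNF615, 4.48 kb from ZNF350, had 75, 74 and 89 counts in A431CT cells, against 101, 102 and 119 in Dsg2KO cells (log2 fold change 0.16, 95% interval -0.19 to 0.51, adjusted p = 0.517). ZNF613, 15.6 kb away on the other side and the nearest relative of ZNF350 by protein (54.9% identity), had 66, 69 and 78 counts against 83, 141 and 109 (log2 fold change 0.36, 95% interval -0.04 to 0.76, adjusted p = 0.170). ZNF350 was thus flanked at close distance by genes that passed no threshold. The 20 tested members between ZNF350 and ZNF665, which lie 1.17 Mb apart, had no call and log2 fold changes between -0.17 and 0.23. Over all tested members 5.08% were called and the conditions did not overlap in 15.3%, beside 6.03% and 42.6% of all genes. Few or no calls among 10 or 20 members are therefore usual, and nothing about this place is read from them.

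**Figure D4:**
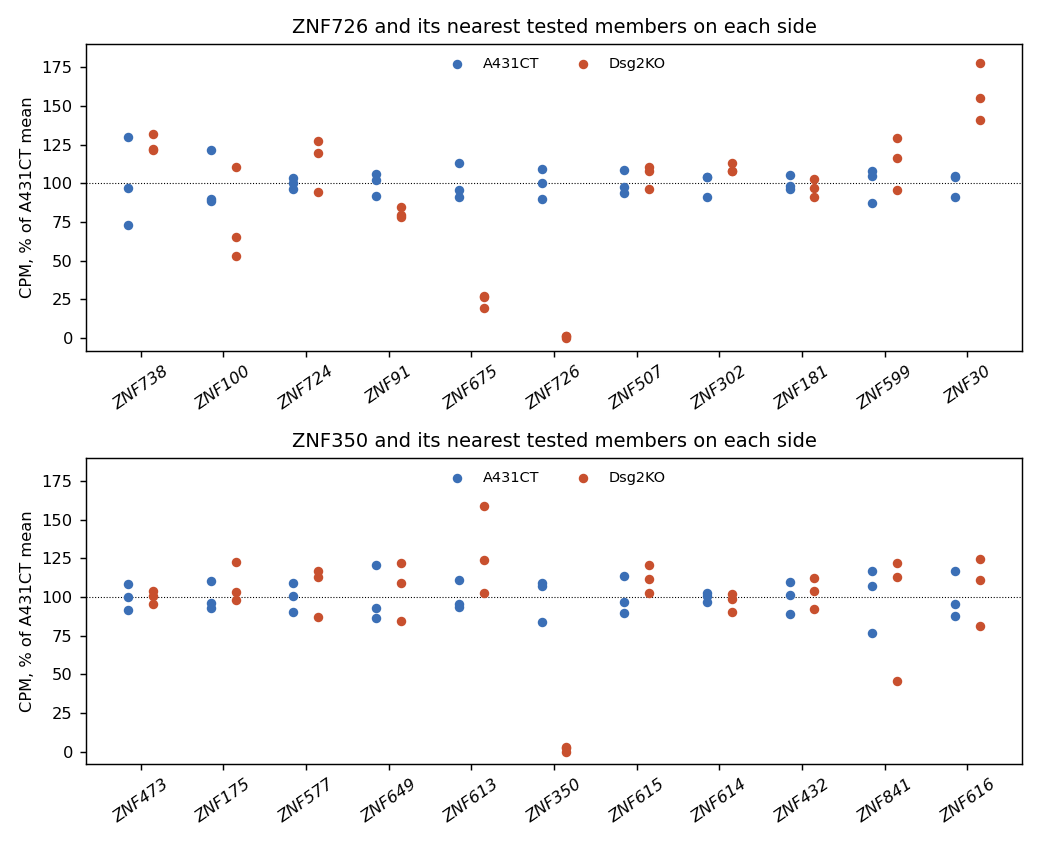
CPM of each library as a percentage of the gene's A431CT mean (vertical axis) for ZNF726 and ZNF350 and the 5 nearest tested members on each side in chromosome order (horizontal axis), A431CT in blue and Dsg2KO in red. ZNF675, next to ZNF726, has a Dsg2KO mean of 24.4%, while the Dsg2KO mean of both genes beside ZNF350 lies above 100%, at 128% for ZNF613 and 112% for ZNF615.

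The nearest protein relatives of ZNF675 and ZNF665 passed no threshold. ZNF85, the nearest relative of ZNF675 (75.7% identity), had a log2 fold change of 0.23 (95% interval -0.32 to 0.78, edgeR adjusted p = 0.555). ZNF160, the nearest relative of ZNF665 (71.8% identity), was at 20.1 ± 2.78 CPM in A431CT cells, against 20.1 ± 0.69 CPM in Dsg2KO cells (SD, n = 3). The called members had a median of 11 fingers, and all members a median of 12 with a range from 1 to 36, so every member with a placed transcript held at least 1 C2H2 pattern.

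The summed level of all 243 members was 2944, 2905 and 3039 CPM in A431CT cells, against 2913, 2896 and 3063 CPM in Dsg2KO cells. The means were 2962 ± 68.8 and 2958 ± 92.1 CPM (SD, n = 3), and the libraries of both conditions overlapped. Per length, the most abundant members were ZNF146, a protein made almost only of fingers, at 39.2 CPM per kb of exon, ZNF358 at 32.4, ZNF787 at 27.4, ZNF114 at 23.2 and ZNF428 at 21.7 CPM per kb. Of these, ZNF358 passed the adjusted p-value alone, with a log2 fold change of 0.18 (adjusted p = 0.0206). Without ZNF726, ZNF350, ZNF675 and ZNF665, the summed level in A431CT cells was 2932 CPM, so the 4 genes called lower held little of the zinc finger transcripts.

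Members known as repressors of repeats and of heterochromatin were read from a list of 10, of which 6 were tested. None of the 6 was called, beside 6.03% of all genes tested. ZNF91 alone passed the adjusted p-value (16.7%), beside 29.6% of all genes. ZNF274, which directs SETDB1 to the zinc finger genes themselves, was at 31.7 ± 2.06 CPM in A431CT cells, against 32.0 ± 0.83 CPM in Dsg2KO cells (SD, n = 3). ZNF93, a repressor of LINE-1, had at most 3 counts in any library. Of 8 members often methylated in carcinomas, only ZNF132 had enough reads for a test, with 23, 56 and 41 counts in A431CT cells, against 38, 41 and 39 in Dsg2KO cells and no call. Another 4 of them were at 3 counts or fewer in every library, ZNF154 at 0 in all, so these 4 genes had hardly any reads in either line. Of all 243 members, 66 were not tested and 55 were at 3 counts or fewer in every library.

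The proteins that KRAB zinc finger proteins work with were read from a list of 32 genes, all tested. None was called, beside 6.03% of all genes, and 9 passed the adjusted p-value alone (28.1%), beside 29.6% of all genes. TRIM28, the KRAB corepressor, was at 852 ± 42.8 CPM in A431CT cells, against 792 ± 11.4 CPM in Dsg2KO cells (SD, n = 3; log2 fold change -0.11, edgeR adjusted p = 0.0423). SETDB1 had a log2 fold change of -0.09 (95% interval -0.27 to 0.09, adjusted p = 0.467). The largest change was that of the deacetylase HDAC1, which fell by 0.49 on the log2 scale (adjusted p = 5.88e-07), just under the fold change minimum. In the list, 1 gene was called lower when Dsg2KO replicate 2 was left out, and 1 when Dsg2KO replicate 3 was left out. The histone chaperone RBBP4, the HUSH subunit MPHOSPH8 and the heterochromatin protein CBX5 also fell by the adjusted p-value alone, by 0.35, 0.30 and 0.12. CDCA7, CHD3, ATRX and TET2 rose by it, with log2 fold changes from 0.17 to 0.29. The intervals of 30 of the 32 lay within 0.5 of 0.

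Known partners and targets of ZNF350 were read from a list of 6, of which 5 were tested. None of the 5 was called, beside 6.03% of all genes tested, while 3 were lower by the adjusted p-value alone, beside 15.3% of all genes. GADD45A, which ZNF350 is known to repress, was at 83.1, 80.7 and 85.5 CPM in A431CT cells, against 71.7, 68.7 and 63.0 CPM in Dsg2KO cells. All Dsg2KO libraries were lower, and the gene fell by 0.29 on the log2 scale (adjusted p = 0.000919). HMGA2, another known target, fell by 0.25 (adjusted p = 0.00378), and ANGPT1 had at most 1 count in any library.

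Zinc finger genes of the same name pattern on other chromosomes numbered 262, with 214 tested and 8 called (3.74%), 3 higher and 5 lower, and a median log2 fold change of 0.03. Without A431CT replicate 1, 7 of them were called higher and 4 lower. The other genes of chromosome 19 numbered 1303, with 770 tested and 35 called (4.55%), 24 higher and 11 lower, and a median of -0.02. By the adjusted p-value alone, 13.6% of the zinc finger genes of other chromosomes and 23.5% of the other chromosome 19 genes passed, beside 7.91% of the chromosome 19 zinc finger genes. The conditions did not overlap in 31.3% and 34.0% of them, beside 15.3%. The median standard error was 0.095 for zinc finger genes of other chromosomes and 0.075 for the other chromosome 19 genes, below the 0.14 of the members, and its part in these shares was not tested.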

How the data were processed

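RNA of 3 A431CT and 3 Dsg2KO libraries was measured by paired-end RNA-seq. The authors used CLC Genomics Workbench 23 for trimming, alignment to GRCh38 and counting, and they deposited raw counts per gene without normalization. The annotation, the treatment of strand and of reads with several matches, and whether cultures were separate beyond the term biological replicate are not given in the sources used here; if the replicates are technical, p-values measure only that spread. All 6 value columns were mapped, and 0 were left unused.

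The counts of all genes were fitted with edgeR 4.0.16 in R 4.3.3 (TMM factors from 0.990 to 1.01, filterByExpr with a minimum count of 10 and a minimum total of 15, quasi-likelihood test without covariates), and p-values were adjusted by Benjamini-Hochberg over 12857 genes. CPM values use TMM factors, and fitted log2 fold changes use the default prior count of the fit. A prior count of 2 entered only the log CPM values used to compare same-numbered libraries. The biological coefficient of variation was 4.79%. Libraries of a condition differed beyond counting noise, at 2.66 to 4.20 chi-square per degree of freedom. The fit was tested on simulated data with known changes.

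The members and all gene lists were chosen with earlier results of these data known. Named genes were ZNF726 and ZNF350, every member past both thresholds, the 5 nearest tested members on each side of ZNF726 and ZNF350, members near 0 in only one condition, the 5 most abundant per exon length, members of the lists, DSG2, and the nearest protein relatives. ZNF90, ZNF772, ZNF417, ZNF790, ZNF549, ZNF85, ZNF160, ZNF431, ZNF492, ZNF681 and the list genes without a call were named after their values were seen. Gene positions came from GENCODE 44 (242 of 243 members placed), promoters from RefSeq, and protein identities from blastp 2.17.0 on translated GENCODE transcripts, with fingers counted as C2H2 patterns. Alternatives were DESeq2 1.42.0, RLE factors, library totals, 2 other count filters, other fold change minima, each replicate left out and a replicate block.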

Additional observations from a re-analysis of the deposited data

How the results depend on the processing

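The count of chromosome 19 zinc finger genes called was 14 with no fold change minimum (6 higher, 8 lower) and 5 with a minimum of 1 (1 higher, 4 lower), and 7 to 10 when each replicate was left out in turn, with 3 to 6 higher and 4 to 6 lower. With at least 10 counts required in every library it was 6, 5 higher and 1 lower. ZNF726, ZNF350, ZNF665 and ZNF580 then were not tested, while ZNF790 was called (log2 fold change 0.92, edgeR adjusted p = 0.0448). For zinc finger genes of other chromosomes, no minimum gave 29, a minimum of 1 gave 1, and leaving out replicates gave 7 to 11. For other chromosome 19 genes these counts were 181, 12 and 26 to 39. With no minimum, 9 genes of the silencing machinery and 3 of the ZNF350 list passed. Of the machinery genes, 1 was called lower without Dsg2KO replicate 2 and 1 without Dsg2KO replicate 3, for a range of 0 to 1. The ZNF350 list stayed at 0 when a replicate was left out. The members' median log2 fold change ranged from 0.01 to 0.05 when a replicate was left out. The other alternatives kept these totals within 1.5 times. Among uncalled named genes, 10 changed sign under at least 1 setting, with values of at most 0.23 and none past the thresholds. ZNF790 and ZNF549 each passed under 3 settings. For the 5 members past the adjusted p-value alone, its highest value over the settings was 0.0611 for ZNF90, 0.0822 for ZNF91, 0.105 for ZNF358, 0.139 for ZNF772 and 0.148 for ZNF417.

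Same-numbered libraries did not deviate together (correlations -0.0027, 0.0135 and 0.0539), so the replicate numbers were not treated as pairs. With the replicate block, 9 members were called, as without it. Few counts limit the weaker members, and at these depths a level below 0.184 to 0.236 CPM cannot be told from 0.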

Other observations

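Zinc finger genes of other chromosomes that passed both thresholds were looked up after their values were seen. Of the 5 called lower in Dsg2KO cells, 4 lie on chromosome 12. The share of tested zinc finger genes on chromosome 12 was not counted, and its uncalled ones are not listed, so no regional change is read from this. ZNF84, ZNF10 and ZNF268 lie at the end of the long arm of chromosome 12, between positions 133037292 and 133214832 (GRCh38). Their log2 fold changes were -0.59, -0.59 and -0.70. ZNF664, at 291 ± 5.43 CPM in A431CT cells and 200.1 ± 4.38 CPM in Dsg2KO cells (SD, n = 3), lies further in on the same arm. The other gene called lower was ZNF691 on chromosome 1. The 3 called higher were ZNF703 and ZNF704 on chromosome 8, with log2 fold changes of 0.64 and 0.77, and ZNF512B on chromosome 20, with 1.19.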
